A study of Mus musculus with 6 samples.

Results

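Transcripts of 10 genes of the Notch pathway were examined in sorted stromal cells of mouse fat: the receptor genes Notch1, Notch2, Notch3 and Notch4, the ligand genes Jag1 and Dll1, the Notch-binding protein gene Dner, and the target genes Hes1, Hey1 and Heyl. They were taken from a bead array as every probe that the platform annotation assigns to one of these symbols, which gave 13 of the 45281 probes; 3 genes had 2 probes each and 7 genes had 1. The genes were picked with the contrast between the GFP groups in view, so their differences between the groups are given as a description. Calls of the fit over all probes are named for them but are not used as support.

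The samples were 3 GFP positive and 3 GFP negative populations. All 6 came from epididymal fat; the donors were Zfp423-GFP reporter males, 5 weeks old, and the cells were gated as PDGFRβ-positive cells without CD31, an endothelial protein, or CD45, a leukocyte protein. Sorting on GFP fluorescence was the one labelled difference between the groups, and the question was which transcripts characterise the cells with the reporter. The replicates were called biological, without a statement on whether a sample pooled animals, and no construct of the reporter was described. Of the stromal markers 7 were tested, with 1 higher and 1 lower, where 8.65% and 7.17% of all genes tested were. Thy1, a surface glycoprotein of stromal cells, fell by 1.71 ± 0.16 (log2, SE; limma adjusted p = 0.000967) and stayed past the threshold under all 17 alternatives. Pdgfrb, the gated receptor, was detected on every array, with a level higher by 0.58 ± 0.11 in GFP positive cells (log2, SE; limma, Benjamini-Hochberg adjusted p = 0.0172), a call lost when GFP positive replicate 2 was left out (adjusted p = 0.0561) and when GFP negative replicate 2 was (adjusted p = 0.0745). Pdgfra, Dcn, Lum, Cd34 and Col1a1 did not pass. Ptprc, the CD45 gene, had 4 probes and no detected signal. The brighter Zfp423 probe averaged 7.46 in GFP positive cells and 7.34 in GFP negative cells (limma adjusted p = 0.694). Between 13068 and 14026 probes were detected per array.

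Notch proteins are single-pass receptors on the surface of one cell that bind Delta-like or Jagged ligands on the next. Binding exposes the receptor to ADAM proteases and then to γ-secretase, which frees its intracellular domain; this joins the DNA-binding protein RBPJ and Mastermind co-activators and switches on genes such as those of the Hes and Hey repressors. In blood vessels Notch3 is known as the receptor of pericytes and smooth muscle cells and Notch4 as one of endothelial cells, and in adipose tissue Notch signalling is known to restrain fat cell differentiation and browning.

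Signals are given on the log2 scale after background correction and quantile normalization, on which a step of 1 is a doubling, and a difference is GFP positive minus GFP negative. A probe was detected on an array where its detection p-value, which compares it with the negative control beads, was under 0.01, and it was tested when detected on at least 3 of the 6 arrays. By that rule 8 of the 10 genes were tested, each through 1 probe detected on all 6 arrays. In the fit over all probes, 4 of these 8 were higher in GFP positive cells past an adjusted p of 0.05 and none lower (limma; at an unadjusted p under 0.05 also 4 and 0). Over all 8819 genes tested 8.65% were higher and 7.17% lower, and of all probes tested 7.85% were higher; nothing is read from the comparison, since the contrast was known when the genes were chosen. The 4 were Dner, Notch4, Heyl and Notch3, and the other 4 were Notch1, Jag1, Hes1 and Hey1. The groups did not overlap for 5 of the 8, the same 4 and Notch1, all with GFP positive higher. Of all genes 36.5% did not overlap, 17.7% with GFP positive higher and 18.8% with it lower.

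**Figure D1:**
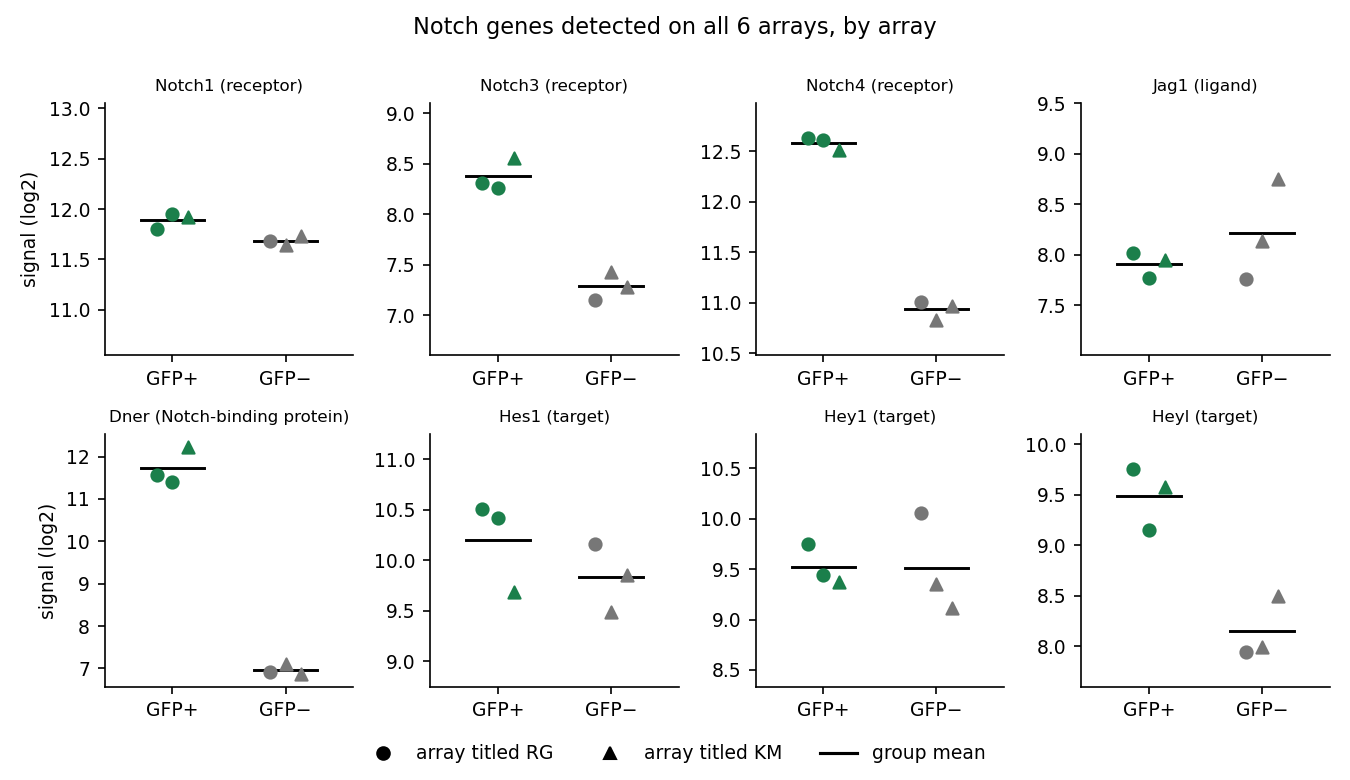
Normalized signal (log2) of the 8 tested genes on each array, GFP positive left and GFP negative right in each panel, with circles for arrays whose titles begin with RG, triangles for KM and a line at each group mean. The axes span different ranges. Dner, Notch3, Notch4 and Heyl stand clear of their GFP negative values, Notch1 does so by a narrow margin, and Jag1, Hes1 and Hey1 overlap.

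Among the receptors, Notch4 differed most. Its signals were 12.63, 12.61 and 12.52 on the GFP positive arrays, against 11.01, 10.82 and 10.97 on the GFP negative arrays. All GFP positive values thus lay above all GFP negative ones, and the spread within each group was small: 12.59 ± 0.06 in GFP positive cells against 10.93 ± 0.10 in GFP negative cells (SD, n = 3 each). The difference was 1.65 ± 0.10 (log2, SE), a 3.14-fold higher level in GFP positive cells, with 1.61 among the RG arrays and 1.62 among the KM arrays. As deposited, before any correction, the intensities were 6371, 6549 and 6138 on the GFP positive arrays, against 2151, 1855 and 2092 on the GFP negative arrays, so the contrast was already plain in the raw signal. A second Notch4 probe (ILMN_1256134) was not detected on any array and adds no level.

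Notch3 was also higher in GFP positive cells. It read 8.31, 8.26 and 8.55 on the GFP positive arrays, against 7.15, 7.43 and 7.29 on the GFP negative arrays. The lowest GFP positive value was above the highest GFP negative one. The difference was 1.09 ± 0.13 (log2, SE), 2.13-fold, with 1.14 among the RG and 1.20 among the KM arrays. Without background correction it shrank to 0.69, still past the threshold of the fit.

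Notch1, the most broadly used receptor of the family, showed a small offset. The GFP positive arrays read 11.80, 11.95 and 11.92 and the GFP negative arrays 11.68, 11.65 and 11.73. Its groups were separate, yet the gap between them was narrow: the difference of 0.21 ± 0.10 (log2, SE) had a 95% interval of -0.03 to 0.44, did not pass, and was 0.13 with median scaling. Notch2 could not be measured, because neither of its probes was detected on any array; their raw signals lay between 129.2 and 158.2, around the array medians of 145.8 to 162.0. That leaves its level unknown in both groups, not shown to be low.

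The sequence before the start site of the genes that were higher in GFP positive cells is shown here for the 3 of the 4 with an entry in the RefSeq promoter table (build GRCm38.p6), each running from 250 bases before the start to 50 after it. Capitals mark GC boxes (GGGCGG or its complement CCGCCC) and matches to the AP-1 motif TGANTCA on either strand.
Notch3 (chr17:32166841-32167140, minus strand): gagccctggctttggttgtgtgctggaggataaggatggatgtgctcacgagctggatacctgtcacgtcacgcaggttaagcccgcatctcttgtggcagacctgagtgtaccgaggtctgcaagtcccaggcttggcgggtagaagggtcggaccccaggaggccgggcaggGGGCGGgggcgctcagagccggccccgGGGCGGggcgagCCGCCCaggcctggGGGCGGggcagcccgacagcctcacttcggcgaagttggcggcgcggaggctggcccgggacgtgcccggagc
Notch4 (chr17:34564045-34564344, plus strand): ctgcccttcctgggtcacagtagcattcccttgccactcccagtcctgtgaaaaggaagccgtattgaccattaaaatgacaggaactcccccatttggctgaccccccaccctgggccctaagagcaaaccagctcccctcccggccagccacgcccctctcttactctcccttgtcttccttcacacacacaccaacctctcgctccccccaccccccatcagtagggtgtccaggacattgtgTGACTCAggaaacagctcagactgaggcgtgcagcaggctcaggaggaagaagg
Dner (chr1:84696172-84696471, minus strand): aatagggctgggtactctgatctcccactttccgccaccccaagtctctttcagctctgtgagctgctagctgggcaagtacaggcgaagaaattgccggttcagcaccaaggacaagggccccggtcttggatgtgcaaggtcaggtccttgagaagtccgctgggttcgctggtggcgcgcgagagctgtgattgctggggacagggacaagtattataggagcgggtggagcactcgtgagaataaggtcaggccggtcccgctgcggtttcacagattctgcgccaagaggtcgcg
The Notch3 window held 4 GC boxes and was 70.0% G and C, and those of Notch1 and Notch2 held 5 and 7 GC boxes. The windows of Notch4 and Dner had none and were both 58.3% G and C, where the median over all 32851 windows was 52.7%. GC boxes were present in 35.7% of all windows. The Notch4 window had a single AP-1 match, TGACTCA, whose first base lies 4 bases before the start site; AP-1 matches were present in 7.81% of all windows. The RBPJ core TGGGAA, found in 25.6% of all windows, and the E-box CACGTG that Hes and Hey proteins can bind, found in 7.15%, were searched on both strands and were absent from the windows of all 7 genes with an entry. These letters describe the windows and bear on no factor's binding. None of the 4 motifs was shared by the 3 windows printed.

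Of the Notch-binding proteins, Dner had the widest difference of the 10 genes. It encodes a transmembrane protein with epidermal growth factor-like repeats that is known from neurons and binds Notch, but lacks the DSL domain of the Delta-like and Jagged ligands. Its signals were 11.57, 11.39 and 12.22 on the GFP positive arrays, against 6.91, 7.11 and 6.87 on the GFP negative arrays. GFP positive replicate 3 was the highest of all, and the groups were far apart. The level was 11.73 ± 0.44 in GFP positive cells against 6.96 ± 0.13 in GFP negative cells (SD, n = 3 each), and the difference was 4.76 ± 0.22 (log2, SE), 27.1-fold. It read 4.57 among the RG and 5.23 among the KM arrays and lay above 99.9% of the differences of all genes tested. The same probe gave 3.79 without background correction; as deposited its intensities were 3125, 2934 and 5054 on the GFP positive arrays and 234.5 to 251.2 on the GFP negative arrays. A second Dner probe (ILMN_1214478) was not detected on any array, so the result rests on 1 probe.

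Dner is known as a neuronal gene, and the 12 glial and neuronal markers were therefore read beside it. Of these, 4 were tested and 3 rose: Rbfox3, which encodes the neuronal nuclear protein NeuN, by 2.06 ± 0.24 (log2, SE), Mbp, myelin basic protein, by 1.78 ± 0.24 and Syt1, the synaptic vesicle protein synaptotagmin, by at least 2.52-fold (limma adjusted p = 0.00209, 0.00393 and 0.0148). Of all genes tested, 8.65% were higher. All 3 GFP negative arrays were below detection for Syt1, which met the filter through the GFP positive arrays alone. Its call was lost when GFP negative replicate 2 or 3 was left out (limma adjusted p = 0.0578 and 0.0588). For each of the 3 a single probe carried the call, and other probes of the same gene were not detected on any array or, for 1 Rbfox3 probe, only on 2 GFP positive arrays. Mbp read 0.97 with the authors' normalized values, still past the threshold. Without background correction Syt1 read 1.01 (log2), below its bound but past the threshold, and it lost its call without a filter on dim probes. The defining markers Snap25, Tubb3, Elavl4, Stmn2, Sox10 and S100b were below detection on every array; list members other than these and the 4 tested were not analysed here. The mean over the 4 tested markers was 7.96 to 8.15 on GFP positive and 6.28 to 6.55 on GFP negative arrays (log2). Their summed signal was 10.61 to 10.75 on GFP positive and 8.705 to 9.002 on GFP negative arrays. Rbfox3, which averaged 10.09 on GFP positive and 8.04 on GFP negative arrays, adds most to that sum. The way Syt1 met the filter tilts the count of rises, the mean and the sum towards GFP positive cells. The part of these 4 markers in the Dner difference was not tested.

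The ligands showed no such contrast. Jag1, which encodes the ligand Jagged1, read 8.02, 7.77 and 7.95 on the GFP positive arrays, against 7.76, 8.14 and 8.75 on the GFP negative arrays. The groups overlapped, and GFP negative replicate 3 stood above all other arrays. The difference was -0.30 ± 0.24 (log2, SE; 95% interval -0.88 to 0.28). Leaving out GFP negative replicate 3 gave -0.04, leaving out GFP negative replicate 1 gave -0.53, and the value had opposite signs among the RG arrays (0.14) and the KM arrays (-0.50). With the title letters as a block it was -0.18. Dll1, which encodes the ligand Delta-like 1, was not detected on any array; its lowest detection p was 0.04701, on GFP negative replicate 2. The remaining canonical ligand genes Dll3, Dll4 and Jag2 were also not detected on any array, which left Jag1 as the only one of the 5 ligand genes with a measured level.

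The target genes did not move together. Heyl, a Hey-family repressor known as a Notch3 target in vascular smooth muscle, read 9.75, 9.15 and 9.57 on the GFP positive arrays, against 7.95, 7.99 and 8.50 on the GFP negative arrays. The groups were separate. The difference was 1.35 ± 0.21 (log2, SE), 2.54-fold, and read 1.50 among the RG and 1.33 among the KM arrays. Hes1, a repressor with many inputs besides Notch, read 10.51, 10.42 and 9.68 on the GFP positive arrays, against 10.16, 9.49 and 9.85 on the GFP negative arrays. Its groups overlapped, with GFP positive replicate 3 below 2 of the 3 GFP negative arrays, and the difference of 0.37 ± 0.26 had a 95% interval of -0.26 to 0.99. Leaving out 1 array moved it to 0.22 (GFP positive replicate 1), 0.63 (GFP positive replicate 3) or 0.20 (GFP negative replicate 2), and the title letters as a block gave 0.16, none of them past the threshold. Hey1, the Hey-family repressor best known from the endothelium, read 9.75, 9.44 and 9.37 on the GFP positive arrays, against 10.05, 9.35 and 9.12 on the GFP negative arrays. The highest array was GFP negative replicate 1, and the difference was 0.01 ± 0.25 (95% interval -0.58 to 0.60). Changes within those intervals could not be told from the spread between arrays. Hey2 and Hes5, the remaining targets most often measured for Notch, were not detected on any array.

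**Figure D2:**
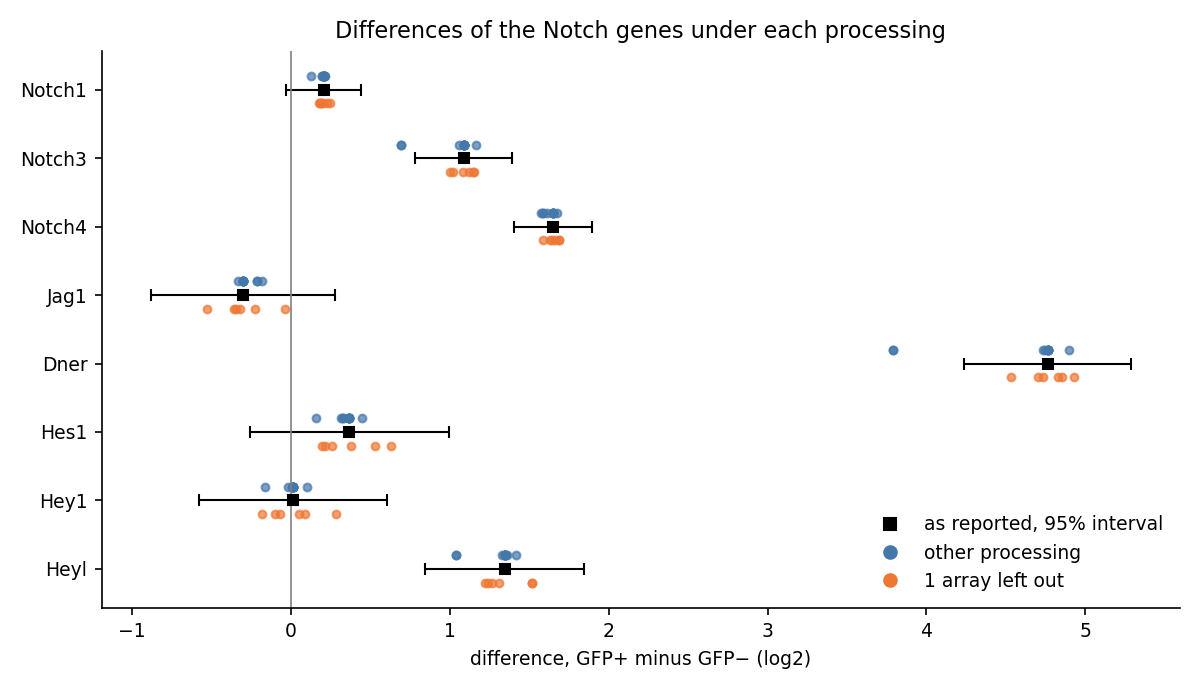
Difference between GFP positive and GFP negative cells (log2) for the 8 tested genes, with the reported value and its 95% interval as a black square and bar, other ways of processing as blue points and fits with 1 array left out as orange points. Notch3, Notch4, Dner and Heyl stay above 0 under all 17 alternatives, and the points of Hey1 lie on both sides of 0.

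The arrays of Hes1 and Hey1 separated by the opening letters of the sample titles, a split that did not pass the test over all genes. The titles of GFP positive replicates 1 and 2 and GFP negative replicate 1 begin with RG, and those of the other 3 with KM; the sources used here do not give what the letters stand for. Hes1 was 10.16 to 10.51 on the RG arrays and 9.49 to 9.85 on the KM arrays, and Hey1 was 9.44 to 10.05 on the RG arrays and 9.12 to 9.37 on the KM arrays. In both genes all 3 RG arrays lay above all 3 KM arrays, as in 6.84% of all genes tested; they were the only 2 of the 8 whose RG and KM arrays did not overlap, and were singled out after their values were seen. With the GFP group in the same fit the RG arrays were higher by 0.64 ± 0.15 for Hes1 and by 0.52 ± 0.19 for Hey1 (log2, SE), which did not pass over all genes (limma adjusted p = 0.367 and 0.515). Without GFP negative replicate 1 the RG minus KM difference of Hey1 was 0.22. No gene passed that comparison, while 779 of the 8819 (8.83%) had an unadjusted p under 0.05. For the 4 genes higher in GFP positive cells the RG minus KM difference was between -0.41 for Dner and 0.11 for Notch4.

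**Figure D3:**
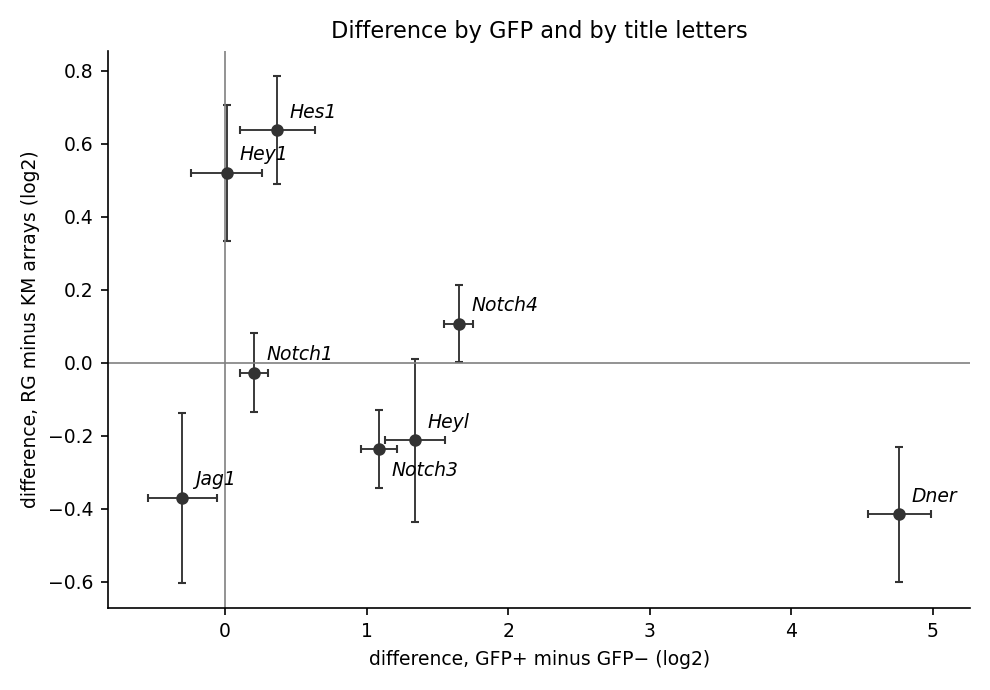
Difference between GFP positive and GFP negative cells (x axis, log2) against the difference between RG and KM arrays with the GFP group in the fit (y axis, log2) for the 8 tested genes; bars are standard errors. Hes1 (0.64) and Hey1 (0.52) lie highest on the y axis near 0 on the x axis, and Dner, Notch4, Heyl and Notch3 extend to the right.

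Notch3 and Heyl are known from the mural cells that wrap vessels, and 12 other mural markers were set beside them. Of these, 6 were tested and 5 rose: the channel genes Abcc9 and Kcnj8, which make up the pericyte KATP channel, by at least 4.79-fold and 4.71-fold, Myh11, smooth muscle myosin, by 1.80 ± 0.22 (log2, SE), Acta2, smooth muscle actin, by 0.95 ± 0.18 and Des, desmin, by 0.78 ± 0.18 (limma adjusted p = 0.000508, 0.0478, 0.00280, 0.0159 and 0.0336). Of all genes tested, 8.65% were higher. The other tested marker, Mcam, did not pass (0.45 ± 0.21, limma adjusted p = 0.188). Abcc9 and Kcnj8 were below detection on every GFP negative array and met the filter through the GFP positive arrays alone. That selection tilts the count, and the mean and sum below, towards GFP positive cells. A dimmer tested Abcc9 probe gave at least 2.42-fold, and its other probes were not detected on any array. Abcc9 was not read under the alternatives. Of 4 tested Acta2 probes, 2 passed and the dimmer others read -0.01 and 0.21; their mean was 0.59. The calls of Acta2 and Kcnj8 ended without GFP negative replicate 2 or 3, that of Kcnj8 also without GFP negative replicate 1, and that of Des without any single array other than GFP negative replicate 1. Kcnj8 kept its call under 4 of 13 alternatives: it also lost it with the authors' normalized values, with a looser detection threshold or none, and with the title letters as a block. Without background correction Kcnj8 lost its call too and read 1.50 (log2), below its bound. Des also lost its call without a filter. Myh11 read 1.19 without background correction, still past the threshold. The pericyte marker Rgs5, Tagln and Higd1b were each detected on 1 GFP positive array only. Cspg4, which encodes NG2, was detected on 1 array of each group, and Cnn1 was not detected on any. The mean over the 6 tested markers was 8.89 to 9.88 on GFP positive and 7.64 to 8.03 on GFP negative arrays (log2), and their summed signal 12.98 to 13.59 on GFP positive and 12.12 to 12.55 on GFP negative arrays. In sorted populations more cells of a kind and more RNA per cell cannot be told apart, and the part of mural cells in the Notch3 and Heyl differences was not tested.

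Notch4 is known from endothelium, and of 16 endothelial markers 13 were tested, with 1 higher and 1 lower. Of all genes tested, 8.65% were higher and 7.17% lower. Eng, the TGF-β co-receptor endoglin, rose by 0.43 ± 0.11, a call that ended without any single array, and Tek, the angiopoietin receptor Tie2, fell by 1.64 ± 0.12 on the log2 scale (SE; limma adjusted p = 0.0432 and 0.000367). The other 11 did not pass; 8 of them were higher in GFP positive cells, up to 0.74 for Emcn, and 3 lower, and the median over the 13 was 0.26. Those lower were Ramp2, Pecam1, which encodes CD31 and averaged 7.80 in GFP positive cells against 8.21 in GFP negative cells, and the tight junction gene Cldn5 with 9.03 in GFP positive cells against 9.41 in GFP negative cells. The mean over the 13 markers was 8.49 to 8.76 on GFP positive and 8.53 to 8.75 on GFP negative arrays, so the ranges overlapped, while the summed signal, to which Tek adds most in GFP negative cells, was 13.46 to 13.57 on GFP positive and 14.16 to 14.25 on GFP negative arrays. Their part in the Notch4 difference was not tested. Of the 14 leukocyte markers 5 were tested and Csf1r and Lyz2 rose, by at least 2.42-fold and 6.96-fold (limma adjusted p = 0.000375 and 0.000145). Both were below detection on every GFP negative array and met the filter through the GFP positive arrays alone. For each a single probe carried the call, and its other probes were not detected on any array. Csf1r read 0.63 with the authors' normalized values and Lyz2 2.07 without background correction (log2), below those bounds but past the threshold. Laptm5, Cd14 and Fcer1g did not pass, at 0.27, 0.42 and -1.12 (limma adjusted p = 0.707, 0.305 and 0.161). Fcer1g was lower at an unadjusted p under 0.05 (limma), and Laptm5 passed without GFP negative replicate 3 (limma adjusted p = 0.0370). Ptprc, Itgam, Adgre1, Tyrobp, Cd52, Cd74 and Cd3e were not detected on any array. Mesothelial markers had 4 of 10 tested and none past the threshold (limma; also none at an unadjusted p under 0.05), with their highest mean, 9.04, on GFP positive replicate 1; without GFP positive replicate 3, Msln and Upk1b passed (limma adjusted p = 0.0215 and 0.0252).

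The rest of the pathway was read from a list of 78 further genes sorted by role, of which 71 were found under 1 symbol on the array and 45 tested. Of the 45, 6 rose and 5 fell (limma, adjusted p under 0.05), where 8.65% and 7.17% of all genes did, and the median difference was 0.05 (log2), against -0.02 over all genes. The number that fell was 3 when GFP negative replicate 1 was left out and 2 when either of the other two was. Tle3, detected on the GFP negative arrays alone, did not meet the filter in any of these fits.

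The secreted and membrane proteins that bind Notch outside the canonical ligand families held 3 of the 6 rises. Cntn6, a contactin of axons that can act as a Notch ligand, read 8.76, 9.28 and 8.93 on the GFP positive arrays, with every GFP negative array below detection, a rise of at least 6.99-fold (limma adjusted p = 9.22e-05). It met the filter through the GFP positive arrays alone. Without background correction the Cntn6 difference was 1.98 (log2), below that bound and past the threshold. Dlk1, the preadipocyte factor and Delta-like homologue without a DSL domain, read 8.20, 9.63 and 9.69 on the GFP positive arrays, against 6.69, 7.36 and 7.16 on the GFP negative arrays, 2.11 ± 0.41 higher (log2, SE; limma adjusted p = 0.0170). GFP positive replicate 1 was the lowest of its group, and the Dlk1 call was lost when GFP positive replicate 2 was left out (adjusted p = 0.0538) and when GFP negative replicate 3 was (adjusted p = 0.0573), and also without a filter on dim probes. Thbs2, the matrix protein thrombospondin 2 that binds Notch3 and Jagged1, rose by 0.89 ± 0.14 (limma adjusted p = 0.00814). Mfap2 and Mfap5, microfibril proteins that bind Jagged and Notch, differed in opposite directions without passing, by 0.63 ± 0.22 and -0.43 ± 0.13 (limma adjusted p = 0.0997 and 0.0630), and Egfl7, a secreted Notch antagonist, by 0.06 ± 0.26. In Ccn3 a single probe was detected on 2 GFP negative arrays and was not tested.

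Among the proteases that process the receptor, Adam17 fell and the other 6 tested did not pass. Adam17, which can shed the Notch ectodomain, read 11.46, 11.44 and 11.49 on the GFP positive arrays, against 12.05, 12.23 and 12.10 on the GFP negative arrays, 0.66 ± 0.10 lower in GFP positive cells (log2, SE; limma adjusted p = 0.00623). Its dimmer probe also passed (-0.74 ± 0.16, limma adjusted p = 0.0253). Adam10, the principal ligand-dependent protease, was detected on 2 GFP negative arrays alone and was not tested. The γ-secretase subunit genes Ncstn, Psenen, Psen2, Aph1a and Aph1b differed by -0.10 to 0.28, and Furin, which cleaves the receptor precursor, by 0.38 ± 0.12 (limma adjusted p = 0.0729).

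Genes that modify or traffic the receptor and ligand gave no call. The glycosyltransferase genes Poglut1 and Mfng differed by -0.13 and -0.38, and the 9 tested ubiquitin ligase and endocytic genes ranged from -0.59 for Mib1, a ligase that activates ligands by endocytosis, to 0.67 for Dtx3l, with none past the threshold (limma; 3 lower at an unadjusted p under 0.05). Numb and Numbl, which turn receptors over, differed by -0.28 and -0.29. In the nuclear complex 5 genes were tested and none passed (limma; 1 higher and 1 lower at an unadjusted p under 0.05), with Mastermind genes Maml1 at -0.24 and Maml2 at 0.31. The Maml1 probes disagreed: the dimmer one was 1.02 higher in GFP positive cells and passed (limma adjusted p = 0.0324). None of the 3 probes of Rbpj was detected on any array. RBPJ is broadly expressed in mouse tissues, so the absence of signal from a probe on this array does not show the absence of a transcript, and the same holds for Notch2, Dll1 and Hey2.

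Groucho co-repressors, which Hes and Hey proteins recruit, split. Tle1 read 12.11, 12.12 and 12.19 on the GFP positive arrays, against 11.48, 11.44 and 11.45 on the GFP negative arrays, a rise of 0.68 ± 0.09 (log2, SE; limma adjusted p = 0.00421), and 2 more of its probes also passed, at 0.57 and 0.74. Tle3 had no detected signal in GFP positive cells, at least a 1.46-fold lower level (limma adjusted p = 0.0139). It met the filter through the GFP negative arrays alone. Without background correction its difference was -0.29 (log2), smaller than that bound and past the threshold. Tle2, Tle4 and Tle5 differed by 0.12, 0.03 and -0.31 without passing.

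Targets outside the Hes and Hey families, most of them with many other inputs, also split. Ccnd1, cyclin D1, and Snai2, the repressor Slug, rose by 0.69 ± 0.13 and 0.94 ± 0.18 (log2, SE; limma adjusted p = 0.0137 and 0.0148). Myc fell by 1.09 ± 0.12, the cell cycle inhibitor gene Cdkn1a by 0.85 ± 0.18 and the repressor gene Bcl6 by 0.61 ± 0.15 on the log2 scale (limma adjusted p = 0.00178, 0.0234 and 0.0411). The calls of Ccnd1 and Cdkn1a ended without GFP negative replicate 2 or 3, and the Bcl6 call without any single array other than GFP positive replicate 3. Cdkn1a and Bcl6 also lost their calls without a filter on dim probes, and Bcl6 with the title letters as a block. Nrarp, a direct Notch target that feeds back on the pathway, was detected on 1 GFP positive and 2 GFP negative arrays and differed by -0.53 ± 0.28 (limma adjusted p = 0.252). Without background correction Myc read -0.52 and Snai2 0.42, both still past the threshold. Of the remaining Hes and Hey genes Hes6 alone was tested, at 0.05 ± 0.17.

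**Figure D4:**
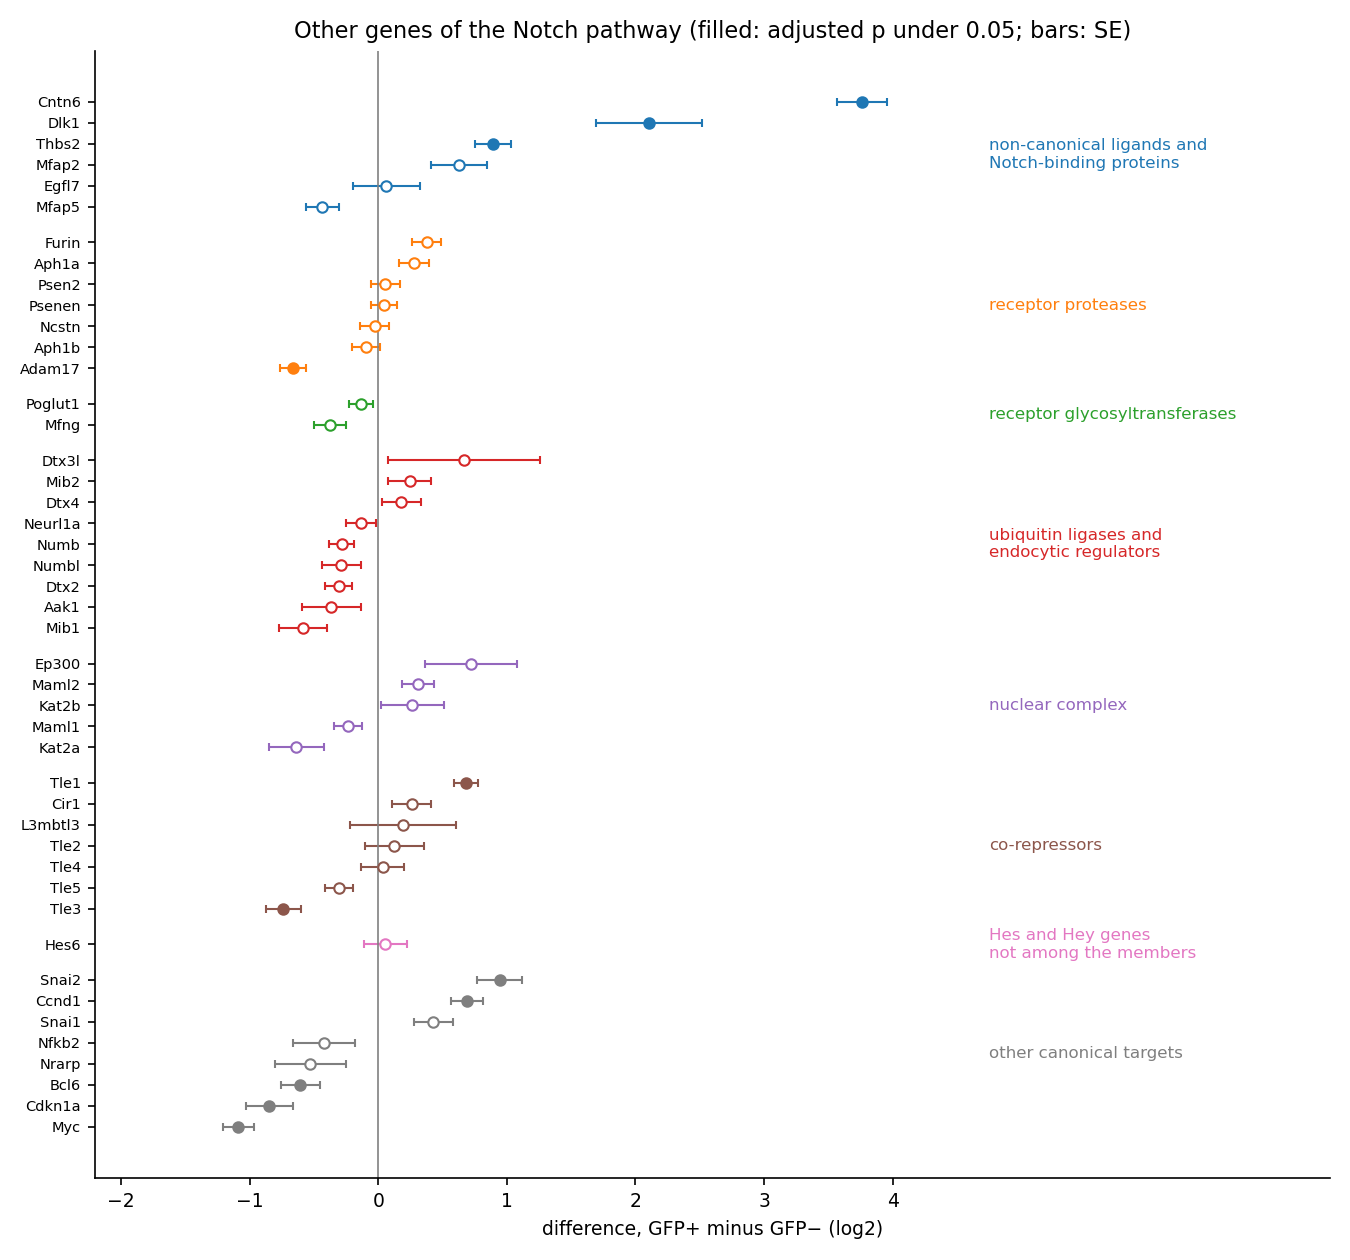
Difference between GFP positive and GFP negative cells (x axis, log2) with its standard error for the 45 tested further genes of the pathway, grouped by role; filled points passed an adjusted p of 0.05 over all probes. Cntn6 and Dlk1 lie farthest right and Myc farthest left; Cntn6 and Tle3 are set against background in the group where they were not detected.

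The genes whose signals ran closest to those of Notch3 over the 6 arrays were Tgm2, Fkbp5, Crtap, Nt5c1b and Gas2l1, with Pearson correlations of 0.995 to 0.998. For Dner they were Plppr5, Id2, Olfml3, Sorcs2 and Prickle1, with 0.998 to 0.999. Id2, an inhibitor of helix-loop-helix factors, was 1.93 higher in GFP positive cells (log2). The 6 arrays form 2 groups, so any gene with a clean group difference scores high: 312 genes exceeded 0.95 with Notch3 and 395 with Dner. These names describe a shared pattern over 6 arrays and no more.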

How the data were processed

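RNA of 6 sorted cell samples was amplified in 2 rounds, biotin-labelled and read on 1-colour Illumina bead arrays, per the labels' protocols. The authors deposited non-normalized probe signals on a linear intensity scale, per the file headers. Beside each signal the deposited table gives a detection p-value. GenomeStudio is named in the submitters' processing notes, with no version given in the sources used here. The authors' second deposited table holds intensity values with array medians of 154.1 to 154.2 and served as an alternative.

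Signals were processed in limma 3.58.1 (R 4.3.3) with neqc (normexp background from the detection p-values, offset 16, quantile normalization, log2). The platform annotation gave 1 symbol to 34885 of the 45281 probes, several to 18 and none to 10378; 34807 were matched to RefSeq gene numbers, which changed 0 symbols. The 13727 probes (8819 genes) detected at p under 0.01 on 3 or more of the 6 arrays were tested with lmFit and eBayes, 2-sided, Benjamini-Hochberg over all tested probes. A gene's value is that of its brightest tested probe. A gene not detected on any array of 1 group has a fold of at least the detected mean over the other group's mean of the higher of its own value and the lowest detected signal. This bound holds for the processing used and takes no account of the spread between arrays. The number of arrays limits the precision. The p-values set a group difference against the spread between these samples, moderated over all tested probes. Whether a sample pooled animals was not stated, so that spread need not be the spread between mice.

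The 10 genes, the pathway and marker lists and the motifs were chosen with earlier results of these data known. Named were all 10 genes, pathway genes past the threshold, Rbpj, Adam10, Dll4, Jag2 and Hey2, up to 4 of each marker list by brightness, Zfp423, Pdgfrb, and 5 genes each most correlated with Notch3 and Dner; others were chosen after their values were seen. Some listed genes were not analysed here. The procedure was tested on simulated data. Alternatives changed the background correction, scaling, filter, block, variance model, array weights, probe rule and threshold, or left out each array; the comparison of RG with KM arrays for Hes1 and Hey1 was added after seeing the data.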

Additional observations from a re-analysis of the deposited data

How the results depend on the processing

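The 8 tested genes of the Notch group kept their side of the threshold under all 17 alternatives run with a single change of processing or array, and the count of 4 higher and 0 lower also held at an adjusted p of 0.01. The genes were chosen with the contrast known, and the alternatives reuse the same 6 arrays. Their calls therefore describe how the values depend on the processing and lend the differences no support. Hey1, which had no call, changed sign with median scaling (-0.0205), with the title letters as a block (-0.16) and over fits without 1 array (-0.18 to 0.29). Of the markers without a call, Dcn read -0.0698 with median scaling and -0.17 as the mean over probes, and Upk3b -0.13 to 0.87 without 1 array. Over all genes 763 were higher and 632 lower; without 1 array these were 451 to 693 and 223 to 534, at an adjusted p of 0.01 they were 381 and 208, and without a filter the number lower was 409. The samples share replicate numbers in their titles. The deviations of same-numbered samples correlated at -0.07, -0.20 and 0.07, which with 3 samples per group cannot settle whether they were paired. With a replicate block 558 genes were higher and 383 lower, and the 4 calls among the Notch genes held. Under that block Pdgfrb, Acta2, Des, Kcnj8, Eng and Bcl6 lost their calls (adjusted p = 0.0511, 0.0572, 0.0742, 0.0548, 0.120 and 0.0519) and Gpm6a, a mesothelial marker, gained one (adjusted p = 0.0416). Of the other pathway genes 5 were lower, 3 when probes had to be detected on all 6 arrays and 2 to 5 without 1 array. Tle3 and Myc did not meet the filter when all 6 arrays were required. Tle3 also did not meet it in the fits that left out a GFP negative array. The other calls lost without 1 array were those of Bcl6 and Cdkn1a, and the cause was not tested beyond the fewer arrays in those fits. Signals near background limit Notch2, Dll1 and the second probes of Notch4 and Dner, which have no measured level.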
